A study of Mus musculus with 6 samples.

Results

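The Ms4a genes encode small membrane proteins that cross the cell membrane several times, and the mouse genes lie side by side on chromosome 19. The 9 members described here are Ms4a1, Ms4a2, Ms4a3, Ms4a4b, Ms4a4c, Ms4a6b, Ms4a6c, Ms4a6d and their neighbour Gm8369, which has no family name in the annotation. They were taken by symbol from a table of 55401 gene IDs, and the annotation lists 11 further Ms4a genes in the same cluster. They were selected on their CPM (counts scaled to library size) in these same 6 libraries, so their levels and differences are a description. Counts of members called by the fit over all genes are printed only beside the share over all genes, and nothing is read from them.

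Members of the family mark different blood cells. Ms4a1 encodes CD20, a surface protein of B cells that takes part in B cell receptor signalling. Ms4a2 encodes the beta chain of the high-affinity IgE receptor of mast cells and basophils. Ms4a3 is expressed in granulocyte-monocyte progenitors, and the protein of Ms4a4b is found on T cells, where it associates with the co-stimulatory receptor GITR. Ms4a6d and the non-members Ms4a4a and Ms4a7 have been described in macrophages.

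RNA of 2000 sorted mouse bone marrow cells per library was compared between 2 groups of 3 libraries, both labelled wild type. The LSK group held cells sorted as Lin-Sca-1+c-Kit+, the marrow fraction with stem and multipotent progenitor cells, from untreated C57BL/6 mice 6 to 8 weeks old. The ESC-derived group held Lin-Sca-1+c-Kit- cells of primary recipients that had received sorted CD144+ cells made from embryonic stem cells, and the labels used here state no age, strain or engraftment for the recipients. The groups thus differ in origin, in transplantation and in the c-Kit gate, and may differ in age and strain. These cannot be told apart. The labels do not say whether the libraries of a group came from separate animals, so the spread between them may be technical.

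The libraries held between 41580006 and 49269286 counts. The gated genes went with the labels: Kit, which encodes c-Kit, had 2081 to 2550 counts per LSK library and 2 to 6 per ESC-derived library, and Ly6a, which encodes Sca-1, was present in both groups (288 ± 39.7 and 711 ± 205 CPM). Ptprc, the pan-leukocyte antigen CD45, rose from 147 ± 11.1 to 496 ± 47.5 CPM, and Cdh5, which encodes CD144, had 8 counts in all LSK libraries and 0 in the ESC-derived ones. LSK replicate 2 lay unusually often between the other LSK libraries: among 3160 genes at 50 CPM or more it did so in 68.7%. The like share was 17.0 and 14.2% for LSK replicates 1 and 3 and 28.6 to 38.4% for the ESC-derived libraries. Of the 9 members, 7 had LSK replicate 2 between the other LSK libraries. Without LSK replicate 2, 5 members were called higher and 1 lower, beside 1466 higher and 1250 lower of 17030 genes tested. Whether it is a separate sample is not known from the labels, and if it is not, n = 3 and the SDs of the LSK group overstate the precision. Of 16211 genes fitted, 4861 differed (2395 higher and 2466 lower in the ESC-derived group), and 2716 did without LSK replicate 2. With library totals as the only scaling 36.5% of the calls were higher, against 49.3% with the TMM scaling used here.

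The sequences just upstream of the start sites were compared between members. Promoter windows of 300 bases, 250 before the start site and 50 from it, were found for 7 members in the RefSeq table (GRCm38.p6). The windows of Ms4a4b (chr19:11443308-11443607), Ms4a4c (chr19:11407411-11407710) and Gm8369 (chr19:11491788-11492087), all on the plus strand, are printed because these neighbours have similar promoter sequences and all 3 were higher in ESC-derived cells, at very different levels. Capitals mark the 2 longest runs that all 3 windows share, each of 17 bases, and the second holds the letters GAGGAA.
Ms4a4b: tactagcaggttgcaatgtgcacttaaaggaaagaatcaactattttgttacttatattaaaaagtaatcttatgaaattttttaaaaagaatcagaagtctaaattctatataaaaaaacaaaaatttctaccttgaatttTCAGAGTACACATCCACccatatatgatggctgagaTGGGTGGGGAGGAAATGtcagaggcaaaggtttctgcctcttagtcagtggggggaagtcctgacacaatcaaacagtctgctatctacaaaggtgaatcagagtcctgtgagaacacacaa
Ms4a4c: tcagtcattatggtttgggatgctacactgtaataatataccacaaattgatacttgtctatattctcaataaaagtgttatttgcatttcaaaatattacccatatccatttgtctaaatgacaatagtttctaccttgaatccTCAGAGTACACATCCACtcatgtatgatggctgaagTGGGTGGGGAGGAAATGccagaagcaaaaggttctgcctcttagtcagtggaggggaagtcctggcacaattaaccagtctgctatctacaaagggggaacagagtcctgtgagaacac
Gm8369: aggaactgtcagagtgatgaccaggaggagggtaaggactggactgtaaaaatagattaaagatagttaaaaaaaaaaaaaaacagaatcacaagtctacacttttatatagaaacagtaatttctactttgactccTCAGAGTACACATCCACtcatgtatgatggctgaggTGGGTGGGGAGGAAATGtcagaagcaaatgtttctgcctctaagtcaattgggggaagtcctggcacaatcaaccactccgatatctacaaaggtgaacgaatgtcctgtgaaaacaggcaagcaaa
Over 182 aligned bases the windows of Ms4a4b and Ms4a4c were 89.0% identical, and over 215 aligned bases those of Ms4a4b and Gm8369 were 84.7% identical.

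The windows of Ms4a6b (chr19:11518309-11518608) and Ms4a6c (chr19:11469118-11469417), both on the plus strand, are printed because these close relatives differed in opposite directions between the groups. Capitals mark their longest shared run, 48 bases without a mismatch.
Ms4a6b: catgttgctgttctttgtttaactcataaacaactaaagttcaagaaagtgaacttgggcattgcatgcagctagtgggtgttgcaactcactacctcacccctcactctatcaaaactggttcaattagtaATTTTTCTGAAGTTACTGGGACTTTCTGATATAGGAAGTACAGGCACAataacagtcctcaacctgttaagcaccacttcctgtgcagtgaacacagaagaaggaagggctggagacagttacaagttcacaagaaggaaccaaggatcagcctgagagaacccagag
Ms4a6c: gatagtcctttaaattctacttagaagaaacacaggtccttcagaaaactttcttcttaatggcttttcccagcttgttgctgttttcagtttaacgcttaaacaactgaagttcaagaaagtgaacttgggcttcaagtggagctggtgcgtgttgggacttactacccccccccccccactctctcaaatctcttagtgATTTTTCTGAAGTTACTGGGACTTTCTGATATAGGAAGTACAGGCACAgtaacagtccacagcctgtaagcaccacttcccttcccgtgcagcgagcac
The run spans positions -118 to -71 from the annotated start site in Ms4a6b and -49 to -2 in Ms4a6c, and 213 aligned bases of the windows were 85.4% identical. The RefSeq starts used here can differ from the ends of the GENCODE genes. The letters GAGGAA, searched on both strands, were in 4 of the 7 windows (Ms4a3, Ms4a4b, Ms4a4c and Gm8369) and in 28.3% of all 32851 windows in the table. TATAAA was in 2 of 7 (Ms4a4b and Gm8369) and in 13.6% of all windows. TTNNGNAA was in 5 of 7 and 40.7%, TGTGGT in 1 of 7 (Ms4a4c) and 16.8%, AGATAA in 1 of 7 (Ms4a2) and 11.2%, and the interferon-stimulated response element in 0 of 7 and 3.4%.

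The coding sequences of the genes with printed windows fell into the same groups, by identity over aligned bases with gaps left out. Ms4a4b and Ms4a4c were 91.7% identical over 678 aligned bases, with an exact run of 127 bases, and Gm8369 was 91.1% identical to Ms4a4c and 89.7% to Ms4a4b over 369 bases. The non-member Ms4a4d was 88.3% identical to Gm8369 and 87.9% to Ms4a4c. Ms4a6b was 86.4% identical to Ms4a6c and 81.8% to Ms4a6d, with exact runs of 55 and 81 bases. Ms4a14, with a coding sequence of 3696 bases, scored 79.8 to 85.9% with every other gene, with exact runs of 9 to 17 bases. An identity in that range alone thus does not mark a close relative. Of the windows of 100 bases in the transcripts of Ms4a4c, 29 of 1747 also occur in Ms4a4b transcripts. Ms4a2 shared 13 of its 3203 windows with Ms4a4b, and no other pair of the 20 genes shared any. Reads from those windows cannot be assigned to either gene by sequence, so the level of Ms4a4c beside that of Ms4a4b is uncertain to that extent.

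The family as a whole was far more abundant in ESC-derived cells, and its makeup differed. All 20 genes together reached 6695, 6247 and 5770 CPM in ESC-derived replicates 1 to 3, against 243, 235 and 231 CPM in the LSK replicates. Ms4a4b held 79.4, 78.4 and 75.6% of the family's counts there, and 10.3, 11.2 and 14.7% in LSK. Ms4a6c held 31.5, 30.2 and 30.6% in LSK, but 0.0757, 0.164 and 0.102% in ESC-derived cells. In bulk RNA, fewer cells of a type and less RNA per cell cannot be told apart.

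**Figure D1:**
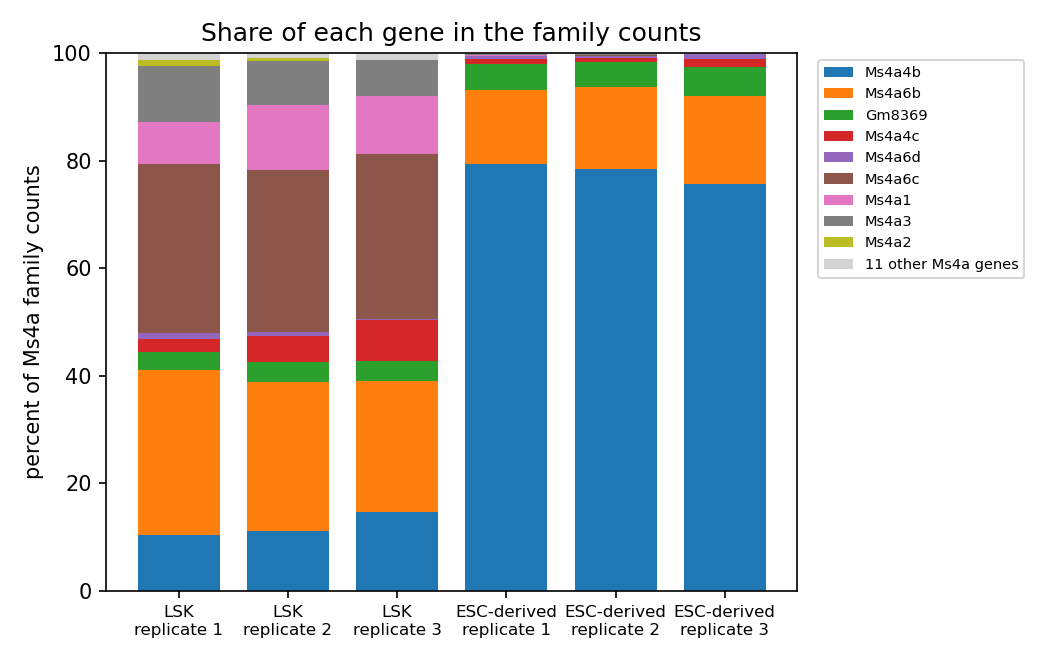
Stacked bars give the share of each gene in the Ms4a family counts (y axis, percent) for each of the 6 libraries (x axis). Ms4a4b takes 75.6 to 79.4% of the counts in the 3 ESC-derived libraries, while the LSK libraries are divided mainly among Ms4a6c, Ms4a6b, Ms4a4b, Ms4a1 and Ms4a3.

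Of the 9 members, 8 passed the low-count filter, and Ms4a2 did not. Of these 8, 5 were called higher and 1 lower with edgeR at a Benjamini-Hochberg threshold of 0.05. The share called over all genes tested was 30.0% in either direction, 14.8% higher and 15.2% lower. The median log2 fold change of the 8 was 3.17, and that of all genes tested was -0.07. Groups without any overlap of libraries were seen in 49.8% of all genes tested. In 5 members (Ms4a4b, Ms4a6b, Gm8369, Ms4a4c and Ms4a6d) every ESC-derived library lay above every LSK library, as in 22.6% of all genes tested, and in 2 (Ms4a6c and Ms4a1) every ESC-derived library lay below, as in 27.2%.

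**Figure D2:**
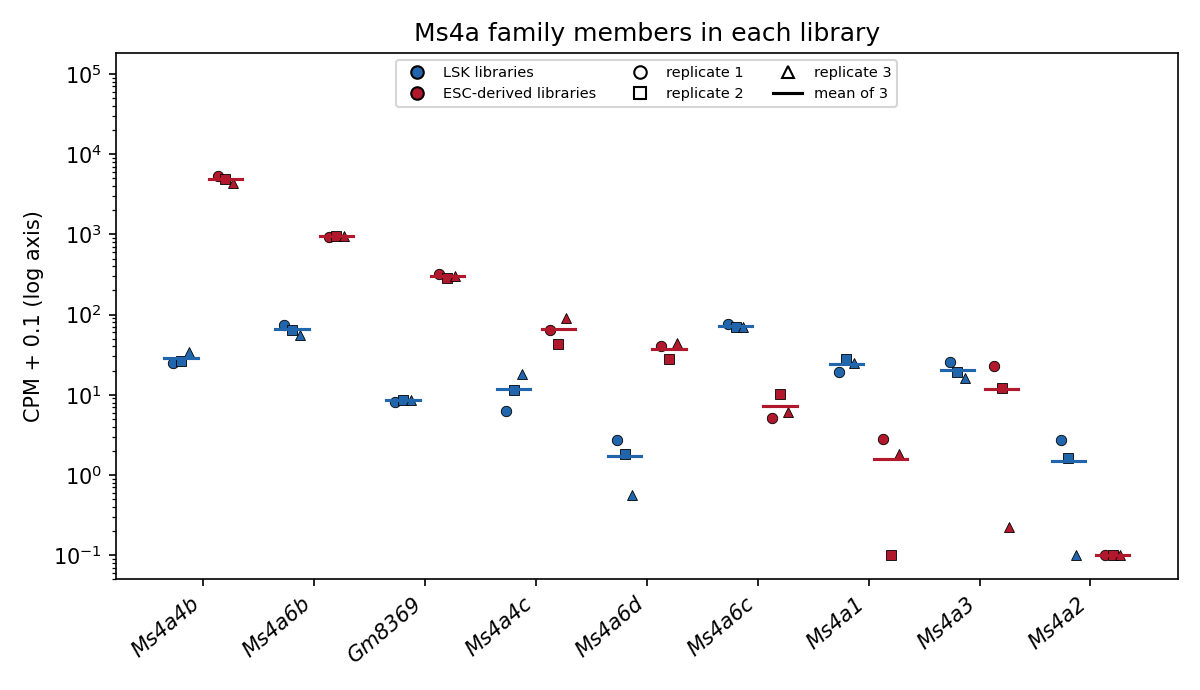
Each point is the level of a member in a library, in CPM + 0.1 on a log axis, with LSK libraries in blue, ESC-derived libraries in red, a marker shape for each replicate and a line at the mean of the 3. Ms4a4b, Ms4a6b, Gm8369, Ms4a4c and Ms4a6d are higher and Ms4a6c and Ms4a1 lower in all ESC-derived libraries, while Ms4a3 spans 0.127 to 23.0 CPM among them.

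Ms4a4b (ENSMUSG00000056290, chromosome 19, 11443553 to 11467055, plus strand) was the most abundant member in ESC-derived cells. ESC-derived replicates 1 to 3 gave 5313, 4897 and 4363 CPM, against 25.0, 26.2 and 34.0 CPM in LSK replicates 1 to 3. The ESC-derived libraries lay close together and far above all LSK libraries. The means were 28.4 ± 4.90 and 4858 ± 477 CPM (SD, n = 3 in each group, as for all means), 171-fold apart, and the fitted log2 fold change was 7.42 ± 0.19 (SE). Tnfrsf18, which encodes its partner GITR, rose from 69.9 ± 15.1 to 406 ± 51.3 CPM (edgeR adjusted p = 0.000203). The genes nearest to Ms4a4b, by the Euclidean distance of log2(CPM + 1) over the 6 libraries among 12704 other protein-coding genes, were Ccl5, a chemokine of cytotoxic lymphocytes (distance 0.755), S100a6 (2.23) and Cd3d, a subunit of the CD3 complex (2.69).

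Ms4a6b (11516512 to 11531256, plus strand) was at 74.7, 65.0 and 56.0 CPM in LSK replicates 1 to 3, while the ESC-derived replicates gave 920, 959 and 949 CPM. The ESC-derived libraries differed little among themselves and did not overlap with the LSK libraries. The means were 65.3 ± 9.33 and 942 ± 20.3 CPM, 14.4-fold apart (log2 fold change 3.85 ± 0.14). Its nearest genes were Itgb7, an integrin chain of lymphocyte homing (distance 0.773), Slfn2 (0.805) and Anxa6 (1.04). The antisense gene Gm19261 shares 19 bases of exon with Ms4a6b, 0.4% of its exon length, and had 4 counts in LSK and 1562 in ESC-derived libraries. The kit does not mark strand, so reads of such overlaps cannot be told apart.

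Gm8369 (ENSMUSG00000058470, 11485938 to 11512577, plus strand), between Ms4a6c and Ms4a6b, gave 320, 286 and 307 CPM in ESC-derived replicates 1 to 3, against 8.13, 8.49 and 8.62 CPM in the LSK replicates. The groups lay far apart, and it was the steadiest member within the LSK group. The means were 8.41 ± 0.258 and 304 ± 16.9 CPM, 36.2-fold apart (log2 fold change 5.18 ± 0.12). Grap2, an adaptor of T cell receptor signalling (distance 0.391), and Thy1, a surface antigen of T cells (1.04), were nearest in pattern, followed by Acp5 (1.17).

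Ms4a4c (11404770 to 11427246, plus strand) varied more between libraries. Its values were 6.10, 11.4 and 18.0 CPM in LSK replicates 1 to 3, against 63.9, 42.6 and 91.5 CPM in the ESC-derived replicates. The lowest ESC-derived library was still above the highest LSK library. The means were 11.8 ± 5.94 and 66.0 ± 24.5 CPM, 5.58-fold apart (log2 fold change 2.48 ± 0.46), against 171-fold for its close relative Ms4a4b. Arap2 (distance 0.835), Dus2 (0.859) and Gbp6 (0.944) were nearest in pattern.

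Ms4a6d (11586604 to 11604849, minus strand) was low in LSK cells, at 2.62, 1.73 and 0.457 CPM. In ESC-derived cells it was measured at 40.3, 28.2 and 44.1 CPM, with no overlap. The means were 1.60 ± 1.09 and 37.5 ± 8.29 CPM, 23.4-fold apart (log2 fold change 4.55 ± 0.65). Its nearest genes were Baiap3 (distance 0.521), Dapk2 (0.968) and Fhl2 (1.01).

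Transcripts of T cells were high in the same libraries, although the gate was lineage-negative. The list counts below stand beside shares of 14.8% higher and 15.2% lower over all genes tested. The lists were chosen with earlier results of these data known. Of 12 T cell list genes, 12 rose and 0 fell (edgeR, 0 also at an unadjusted p under 0.05 and with DESeq2 or limma-voom), and their summed level was 314 to 334 CPM in LSK and 15463 to 16024 CPM in ESC-derived libraries. Cd8a, the co-receptor of cytotoxic T cells, rose by a log2 fold change of 8.87 ± 0.21, and Trbc2, a T cell receptor chain, by 6.39 ± 0.13. Their part in the levels of Ms4a4b, Ms4a6b, Gm8369 and Ms4a4c was not tested. For Ms4a6d the monocyte and macrophage list stood at 740 to 799 CPM in LSK and 443 to 784 CPM in ESC-derived libraries. Most of both sums was Lyz2, at 641 to 698 CPM in LSK and 329 to 638 CPM in ESC-derived libraries, which was not called. Of the list's 11 genes tested 1 rose, Ccr2, a chemokine receptor of monocytes (2.57 ± 0.29), and 1 fell, Cd68, a lysosomal protein of macrophages (-1.13 ± 0.21). Vsig4, a receptor of tissue macrophages, had 0 counts in all 6 libraries. Without ESC-derived replicate 3, 3 rose, adding Mrc1 and Cd14, other surface proteins of macrophages and monocytes. The part of these cells in the level of Ms4a6d was not tested.

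Ms4a6c (ENSMUSG00000079419, 11469366 to 11482192, plus strand), which lies between Ms4a4b and Gm8369, went the other way. LSK replicates 1 to 3 gave 76.6, 70.8 and 70.8 CPM, and the ESC-derived replicates only 5.07, 10.2 and 5.91 CPM. The groups did not overlap, and the LSK libraries lay close together. The means were 72.7 ± 3.33 and 7.07 ± 2.77 CPM, 10.3-fold apart (log2 fold change -3.36 ± 0.31). The noncoding gene BE692007 on the opposite strand covers 53.1% of the exon bases of Ms4a6c and had 911 counts in LSK and 8833 in ESC-derived libraries. Reads from the shared exons can come from either gene, so both levels are uncertain. Slc43a3 (distance 0.862), Spns3 (0.880) and Dnph1 (0.883) were nearest to Ms4a6c in pattern.

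Ms4a1 (ENSMUSG00000024673, 11249675 to 11266241, minus strand) was at 18.95, 28.2 and 24.8 CPM in LSK replicates 1 to 3. The ESC-derived replicates gave 2.74, 0 and 1.73 CPM, from 115, 0 and 82 counts. The groups did not overlap, but the ESC-derived libraries differed widely among themselves. The means were 24.0 ± 4.69 and 1.49 ± 1.38 CPM, 16.1-fold apart (log2 fold change -4.01 ± 1.29), and Ms4a1 was among the 2 fitted members not called. It was called lower without ESC-derived replicate 2, which held 0 counts (log2 fold change -3.42), and with 5 of the other alternatives, such as DESeq2 and limma-voom. Without ESC-derived replicate 1 the log2 fold change was -4.78. Nearest in pattern were Fkbp11 (distance 0.689), Fcmr, a receptor for IgM of B cells (0.946), and Flywch2 (0.990).

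B cell transcripts moved with Ms4a1. Over all genes tested, 14.8% were called higher and 15.2% lower. Of 11 B cell list genes tested, 6 fell and 1 rose, and the summed level was 676 to 702 CPM in LSK and 211 to 221 CPM in ESC-derived libraries, with no listed gene at 0 in either group. Without Cd37 the list stood at 537 to 573 CPM in LSK and 3.26 to 17.6 CPM in ESC-derived libraries. Cd37, the only listed gene that rose, was left out after the values were seen. Cd79a, the B cell receptor's Ig-alpha subunit, fell by 6.59 ± 0.35 on the log2 scale, and Vpreb3, a gene of B cell precursors, had 7214 counts in LSK and 8 in ESC-derived libraries. Cd37, which is also expressed by T cells, rose by 0.62 ± 0.10, a call that was lost with library totals as the only scaling. The part of these cells in the level of Ms4a1 was not tested.

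Ms4a2 (ENSMUSG00000024680, 11615523 to 11623719, minus strand) was the lowest member. It had 128, 69 and 0 counts in LSK replicates 1 to 3, which is 2.64, 1.51 and 0 CPM, and 0 counts in each ESC-derived library. The groups overlap at 0 because of LSK replicate 3. Pooled over the LSK libraries, the counts of Ms4a2 were at least 15.4-fold above a floor of 12 counts over the ESC-derived group. This bound covers counting error only, and LSK replicate 3, at 0, does not show it. Fcer1a, the alpha chain of the same receptor, had 0 counts in all 6 libraries, and Fcer1g, its gamma chain, which other Fc receptors also use, fell from 189 ± 11.5 to 100 ± 25.8 CPM (edgeR adjusted p = 0.0137). Of 6 mast cell and basophil genes tested 5 fell and 0 rose (edgeR, 0 also at an unadjusted p under 0.05 and with DESeq2 or limma-voom), and the summed level was 481 to 601 CPM in LSK and 78.6 to 133 CPM in ESC-derived libraries. Most of the LSK sum was Fcer1g and Gata2, which fell from 222 ± 19.6 to 1.13 ± 1.81 CPM. Gata2 was at 209, 212 and 244 CPM in LSK replicates 1 to 3. Prss34, also among the 5 that fell, was at 74.4, 40.4 and 3.42 CPM there. Most of the ESC-derived sum was Fcer1g, so the sums say little about the other listed genes. Beside the list counts, the shares over all genes tested were 14.8% higher and 15.2% lower. Without LSK replicate 3, Ms4a2 passed the filter and was called lower. Mcpt8, a basophil protease, had 8240 counts in LSK and 8 in ESC-derived libraries, and Cpa3, a mast cell protease, 2619 and 9. The mast cell genes Tpsb2, Mcpt4, Mrgprb1 and the basophil gene Cd200r3 were at 0 in all libraries. The part of these cells in the counts of Ms4a2 was not tested.

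Ms4a3 (ENSMUSG00000024681, 11629496 to 11640851, minus strand) differed widely among the ESC-derived libraries. LSK replicates 1 to 3 gave 25.5, 19.1 and 15.9 CPM, and the ESC-derived replicates 23.0, 11.9 and 0.127 CPM, the last from 6 counts. ESC-derived replicate 1 thus lay within the LSK range, replicate 2 below it and replicate 3 close to 0. The means were 20.1 ± 4.89 and 11.7 ± 11.4 CPM (log2 fold change -0.79 ± 1.23), and the fitted value was -1.74 without ESC-derived replicate 1 and -0.21 without ESC-derived replicate 3. Nanp (distance 1.14), Kif3a (1.19) and Rnf144a (1.20) were nearest, all at a greater distance than the nearest gene of any other member searched.

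The granule protein genes that mark granulocyte-monocyte progenitors were also lowest in ESC-derived replicate 3. Mpo, the neutrophil peroxidase, was at 127, 116.5 and 3.82 CPM in ESC-derived replicates 1 to 3. Elane, neutrophil elastase, was at 87.8, 77.5 and 4.77 CPM, and Ctsg, cathepsin G, at 25.2, 12.3 and 0 CPM. Prtn3, another granule protease, was at 10.1, 21.2 and 1.80 CPM, and it fell against LSK cells (log2 fold change -3.38 ± 0.80). ESC-derived replicate 3 was the lowest of its group in 9 of the 11 progenitor list genes found, against 33.6% of all genes tested. Among these 9 the gap between ESC-derived replicates 2 and 3 was small for Cebpe (7.49 and 7.46 CPM) and Ly6c2 (985 and 913 CPM). Gfi1 and Irf8 were not lowest there, and Mpo, Elane and Ctsg were named after their values were seen. Of the 11, 2 rose, Ly6c2 (2.57 ± 0.12) and Cebpe (2.19 ± 0.48), and 2 fell, Prtn3 and Irf8 (-0.39 ± 0.12). These counts stand beside 14.8% higher and 15.2% lower over all genes tested. Ly6c2 is also made by memory T cells, and Cebpe is a factor of granule formation. Without LSK replicate 1, LSK replicate 2 or ESC-derived replicate 1 no gene of the list fell, without LSK replicate 3 only Prtn3 fell, and without LSK replicate 1 or 2 only Ly6c2 rose. Without ESC-derived replicate 3, Mpo, Prtn3 and Ctsg fell and Irf8 did not pass. The summed level of the list was 1267 to 1447 CPM in LSK and 1086 to 1510 CPM in ESC-derived libraries. Ly6c2 held 913 to 1092 CPM of the latter, and without it the list stood at 1102 to 1264 CPM in LSK and 173 to 418 CPM in ESC-derived libraries. Ly6c2, which rose, was left out after the values were seen. The part of these cells in the level of Ms4a3 was not tested.

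**Figure D3:**
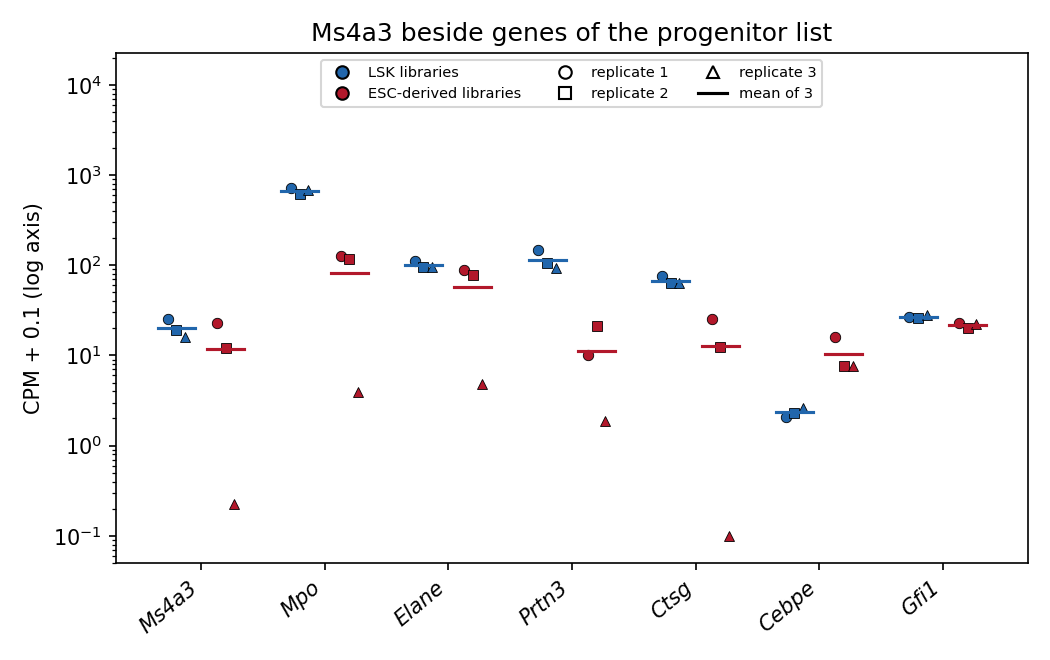
Points give CPM + 0.1 on a log axis for Ms4a3 and 6 genes of the progenitor list in each library, LSK in blue and ESC-derived in red, with a line at the mean of 3. Ms4a3, Mpo, Elane, Prtn3 and Ctsg are far lower in ESC-derived replicate 3 than in ESC-derived replicates 1 and 2, whereas Gfi1 is not. Cebpe is at 15.8, 7.49 and 7.46 CPM in ESC-derived replicates 1 to 3, nearly level in the last 2.

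Between genes, levels were compared per kilobase of the longest coding transcript. In ESC-derived cells the order was Ms4a4b (1023 ± 100 CPM per kilobase), Ms4a6b (352 ± 7.59), Gm8369 (222 ± 12.3), Ms4a4c (38.3 ± 14.2), Ms4a6d (26.5 ± 5.85), Ms4a3 (11.6 ± 11.3), Ms4a6c (3.84 ± 1.503), Ms4a1 (0.484 ± 0.450) and Ms4a2 at 0. The libraries of the first 4 did not overlap between neighbours in this order, whereas those of Ms4a4c and Ms4a6d, Ms4a6d and Ms4a3, Ms4a3 and Ms4a6c, and Ms4a1 and Ms4a2 did. In LSK cells Ms4a6c came first (39.5 ± 1.81 CPM per kilobase), above Ms4a6b (24.3 ± 3.48) and Ms4a3 (19.9 ± 4.84), which overlapped with each other. Ms4a1 (7.80 ± 1.52), Ms4a4c (6.86 ± 3.45), Gm8369 (6.12 ± 0.188) and Ms4a4b (5.98 ± 1.03) followed below Ms4a3 without overlap with it, and each overlapped with the next of these 4. Ms4a6d (1.13 ± 0.766) and Ms4a2 (0.579 ± 0.554) were lowest, apart from Ms4a4b and overlapping with each other. Per kilobase of merged exon the ESC-derived order was the same, and in LSK cells Ms4a1 changed places with Ms4a4c, and Gm8369 with Ms4a4b.

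The values were also set beside position in the cluster. The 20 genes span 679 kb of chromosome 19 (10962293 to 11640851). From Ms4a4a to Ms4a4d, 7 genes in a row lie on the plus strand, among them the 4 members with the most counts in ESC-derived cells, and Ms4a6c, lower in ESC-derived cells, lies within this stretch. Of the 11 other Ms4a genes 4 could be tested. Over all genes tested, 14.8% were called higher and 15.2% lower. Of the 4, 1 rose and 0 fell with edgeR, and the 0 held at an unadjusted p under 0.05 and with DESeq2 or limma-voom. The riser was Ms4a4d, next to Ms4a6b, with 0 counts in LSK and 2.78 ± 1.69 CPM in the ESC-derived group, at least 32.2-fold higher against the floor of 12 counts over the LSK group. Ms4a4d did not pass with a replicate term (edgeR adjusted p = 0.0634). Ms4a4a averaged 1.09 ± 0.772 CPM in LSK and 3.71 ± 0.832 CPM in the other group, Ms4a7 0.882 ± 0.899 and 1.38 ± 0.780 CPM, and neither passed. Ms4a10, Ms4a12 and Ms4a18 had 0 counts in all 6 libraries.

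**Figure D4:**
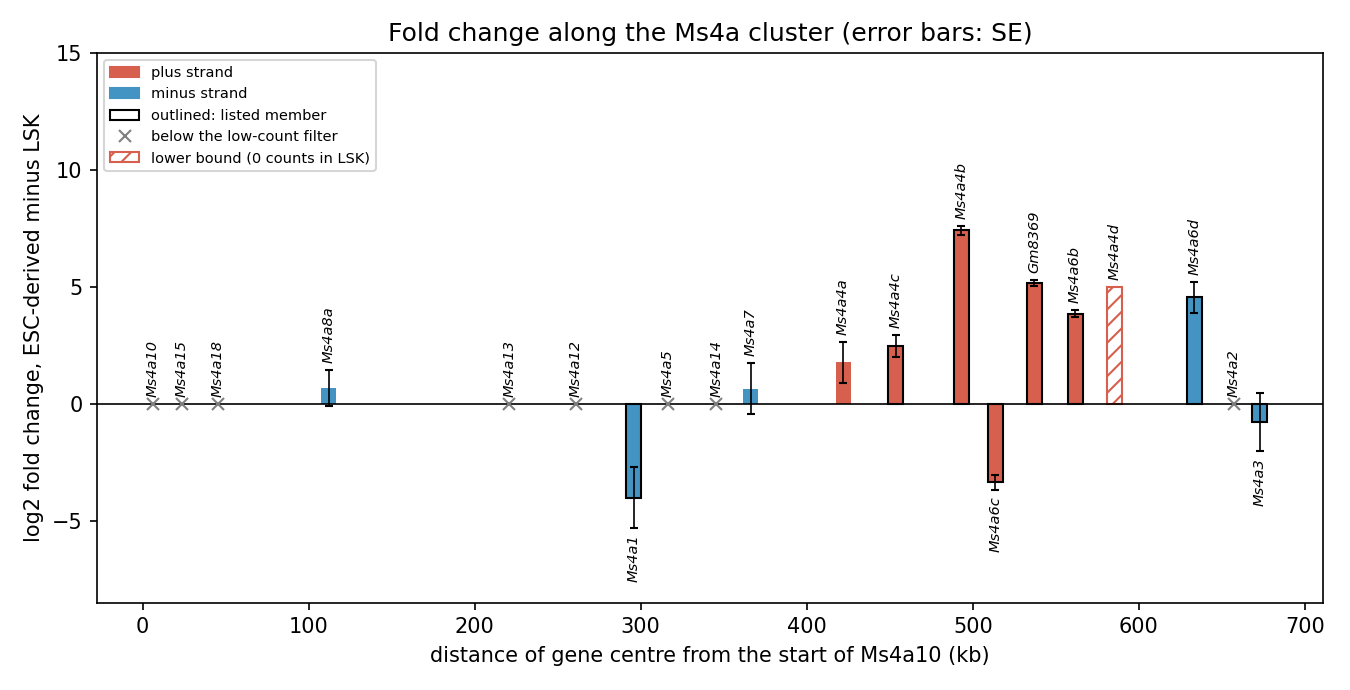
Bars give the fitted log2 fold change, ESC-derived minus LSK, with its SE, against the distance of each gene's centre from the start of Ms4a10 in kb, coloured by strand. The hatched bar of Ms4a4d is a lower bound and crosses mark genes below the low-count filter. High bars lie in the plus-strand stretch from Ms4a4c to Ms4a4d, interrupted by Ms4a6c, and at Ms4a6d on the minus strand.

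The genes around the cluster were examined in the same fit. Of the 2 other protein-coding genes within it and the 5 on each side, 8 were tested, 1 rose and 1 fell, against 14.8 and 15.2% of all genes tested. Ccdc86, the neighbour next to Ms4a10, fell by 0.70 ± 0.19 on the log2 scale, and Tmem109, which lies farther out on that side, rose by 0.63 ± 0.16. The call of Ccdc86 was lost without LSK replicate 1 or 2 or ESC-derived replicate 1 or 3, and that of Tmem109 without LSK replicate 2 or 3 or ESC-derived replicate 2, and with library totals only or a replicate term. Oosp2, the neighbour next to Ms4a3, was at 0.460 ± 0.796 and 2.93 ± 2.03 CPM and did not pass. The related genes Tmem176a and Tmem176b on chromosome 6, whose proteins resemble the Ms4a proteins, fell by 2.64 ± 0.33 and 3.13 ± 0.31 on the log2 scale, from 220 ± 7.75 to 35.4 ± 16.7 CPM and from 316 ± 29.6 to 36.2 ± 14.6 CPM.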

How the data were processed

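The labels' protocols give SMART-Seq v4 cDNA, Nextera XT libraries and Illumina sequencing, and HISAT, StringTie and the build mm10 are named in the submitters' processing notes. Their settings and annotation are not stated there. The authors deposited estimated counts for each Ensembl ID, as whole numbers without normalization. Between 40.1 and 47.2% of values from 1 to 20 were divisible by 4, and the floor of 12 counts over a group takes 3 fragments at 4 counts each and covers counting error only. The table's header names its 6 columns in 1 field, and columns were assigned from the order of names there. Symbols and positions come from GENCODE M21, which is on the same build, and 260 IDs had no match.

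After filterByExpr and TMM scaling, the groups were compared by edgeR 4.0.16 in R 4.3.3 (robust quasi-likelihood, two-sided). P-values were adjusted over all genes by Benjamini-Hochberg with a threshold of 0.05, and folds are of ESC-derived over LSK. The design held the group only. Total counts per library were 41580006 to 49269286. CPM uses the TMM-scaled libraries. The steps were tested on simulated counts. Members and lists were chosen with earlier results of these data known. Named were the members, up to 5 other Ms4a genes at 1 CPM or more, up to 2 higher and 2 lower genes per list, the 3 nearest genes of members at 10 CPM or more, and cluster neighbours that are adjacent or called. Fcer1g, Fcer1a, Gata2, Prss34, Lyz2, Mrc1, Cd14, Tnfrsf18, Mpo, Elane, Ctsg, Gfi1, Vsig4 and the genes at 0 were named after their values were seen. The list sums without Cd37 or Ly6c2 were also chosen after the values were seen. Ms4a14 was named for its coding sequence. The lists held genes of B cells, mast cells and basophils, granulocyte-monocyte progenitors, T cells, monocytes and macrophages, 2 related genes outside the cluster and the sort genes. A protein comparison had been planned, and coding nucleotide sequences were used instead, since amino acid tables were not used here. Alternatives were DESeq2 1.42.0, limma-voom (limma 3.58.1), RLE scaling, library totals, 2 other filters, values divided by 4, the replicate block and each library left out.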

Additional observations from a re-analysis of the deposited data

How the results depend on the processing

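The 5 members called higher numbered 5 under all 14 alternatives. Over all genes, these alternatives called 1466 to 2919 higher and 1250 to 3380 lower, of 13605 to 26005 tested. The members called lower numbered 2 with DESeq2, limma-voom, library totals only, a filter of 50 counts in 3 libraries and values divided by 4, and 1 to 2 with a library left out. The second was Ms4a2 without LSK replicate 3 and Ms4a1 in every other such case. Over all genes, 3220 differed with the replicate number as a block, 1488 of them lower, and 2716 to 4603 with a library left out (1466 to 2163 higher, 1250 to 2440 lower). With the block 0 other Ms4a genes rose, and Ms4a4d, Tmem109, Cebpe and Irf8 lost their calls (edgeR adjusted p = 0.0634, 0.0718, 0.0650 and 0.0846). No pairing was used, since deviations of same-numbered libraries correlated at 0.0144, 0.0377 and 0.0168 over 16211 genes, although each library correlated best with its own number, a hint from the data and not from the design.

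Of the B cell list, 0 genes rose with library totals only. Of the progenitor list, 1 rose with the block and 1 to 2 with a library left out, while 4 fell with DESeq2 or limma-voom, 1 with no low-count filter, 1 with the block and 0 to 3 with a library left out. Of the monocyte and macrophage list, 3 rose with DESeq2, 2 with values divided by 4 and 1 to 3 with a library left out, and 2 fell with DESeq2, limma-voom or library totals only. Library totals moved the median log2 fold change of all genes from -0.07 to -0.32, and the directions of the members held under it. The fold change of Ms4a3 ranged from -2.71 with limma-voom to -0.21. Of the values of named genes under the alternatives, 404 kept direction and side of the threshold, 24 lost the call, 6 gained it and 0 reversed. The cause of these changes was not tested. Levels near 12 counts per group are limited by depth.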
